A study of Mus musculus with 12 samples.

Results

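Brain microvascular endothelial cells that had spent 5 days in culture on transwell filters were compared with brain endothelial cells that had never been cultured. The comparison takes 6 of the 12 arrays of the series, 3 for each of the 2 groups, and gives a value for 15204 genes. Single-cultured cells were mouse brain microvascular endothelial cells grown alone on the filters, with no glial cells in the well. Non-cultured cells were mouse brain endothelial cells sorted with magnetic beads for PECAM1, which sits at the contacts between endothelial cells. The labels name the bead step for the non-cultured cells only, so 5 days of culture and the lack of bead sorting cannot be told apart here. The sources used here do not give strain, sex or age of the mice. The labels also do not say whether the 3 arrays of a group came from separate preparations, and a p-value here covers no more than the spread between arrays, which may be technical. The other 6 arrays entered the same fit: 3 of co-cultured cells, kept the same 5 days on filters over glial cultures aged 3 weeks that they did not touch, and 3 of b.End5, an endothelioma line of mouse brain endothelium.

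Brain endothelium forms the blood-brain barrier. Its cells are sealed by tight junctions, take up little by vesicles, pump many drugs back into the blood and feed the brain through dedicated carriers for sugars, vitamins, hormones and lipids. In the living vessel these properties are known to depend on Wnt signals and other cues from neighbouring cells and on the shear of flowing blood, while endothelial cells of growing vessels divide, loosen their matrix and migrate. The title of the series names culture as a source of change in the transcriptome of this barrier, and the comparison asks which genes other than the amino acid carriers differ after culture and by how much.

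All values are the authors' log2 levels, so a log2 difference of 1 is a 2-fold difference, and a difference is always single-cultured minus non-cultured. Such levels are comparable for 1 gene between arrays and not between genes. A gene was called higher or lower, and is said to have risen or fallen, where limma gave a Benjamini-Hochberg adjusted p under 0.05 over all genes and the log2 difference was at least 1. Between 79.4% and 82.2% of the genes lay above the no-target level of each of the 6 arrays, which is the level of bacterial control probe sets and was 4.15 to 4.46. Where all 3 arrays of a group lay at or under it, only a bound on the fold of that gene can be given. Of the genes named below, 1 of the 3 arrays lay there for Fosb and Ptprr in single-cultured cells and for Igf1, Ccnb2, Fads2 and Tbx18 in non-cultured cells. Where 2 of the 3 did, the levels are given with no fold. Across genes, which are not independent replicates, Pearson's r was 0.989 to 0.995 between single-cultured arrays and 0.994 between non-cultured arrays. Single-cultured replicate 2 stood somewhat apart, since 416 and 421 genes differed by more than 1 log2 unit between it and replicates 1 and 3, against 111 between those arrays and 92 to 151 between non-cultured arrays. Its 3′ minus 5′ difference for the Gapdh control was also the largest of the group, with 2.25, 3.97 and 1.94 log2 units in single-cultured cells, against 2.31, 3.48 and 2.94 in non-cultured cells. Where a call or a count rests on that array or on another, this is said beside it.

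Of the 15204 genes, 1091 (7.18%) rose and 885 (5.82%) fell after 5 days of culture, together 1976, and the other genes did not pass. The 3 single-cultured arrays lay wholly above the 3 non-cultured arrays for 3651 genes and wholly below them for 3229, together 6880 genes without overlap (45.3%). Differences of at least 4-fold were reached by 444 rises and 296 falls, and of at least 16-fold by 67 rises and 60 falls. At 64-fold or more there were 6 rises and 11 falls. These counts take the differences of the levels as they stand and include genes, such as Ankrd1, for which only a bound can be given. The median difference over all genes was -0.0025 on the log2 scale. In bulk samples such as these, fewer cells of a type and less RNA of a gene per cell cannot be told apart. A total of 149 called genes had a bound in place of a fold, because 1 group lay at the no-target level on all its arrays.

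**Figure D1:**
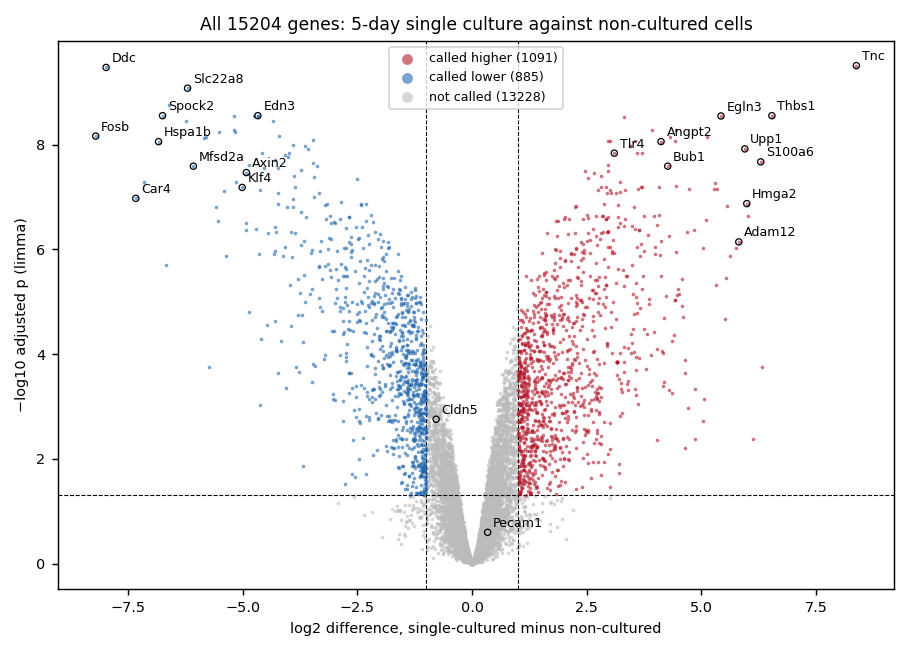
Each point is a gene, with the log2 difference of single-cultured minus non-cultured cells on the horizontal axis and −log10 of the limma adjusted p on the vertical axis. Red points are the 1091 genes called higher, blue points the 885 called lower, and dashed lines mark both thresholds. Tnc lies farthest to the right at 8.38 and Fosb farthest to the left at -8.20, while Pecam1 (0.34) and Cldn5 (-0.78) lie between the thresholds.

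The largest rise was that of Tnc, tenascin C, a matrix protein made in developing and injured tissue. Its log2 level was 12.86, 12.63 and 12.97 in single-cultured cells, against 4.57, 4.40 and 4.35 in non-cultured cells, a difference of 8.38 (SE 0.18), or 333-fold (adjusted p = 3.10e-10). The non-cultured values lay just above the no-target levels of their arrays (4.21, 4.15 and 4.15), so the size of this fold is uncertain. Thbs1, the matrix protein thrombospondin 1, stood at 12.02, 11.93 and 12.03 in single-cultured cells, against 5.15, 5.58 and 5.64 in non-cultured cells, a 92.9-fold difference. All single-cultured arrays of both genes were far above all non-cultured arrays. Upp1, which splits uridine in nucleotide salvage, rose by 5.95 (SE 0.24), the calcium-binding protein S100a6 by 6.29 (SE 0.27) and the metalloprotease Adam12 by 5.82 (SE 0.39). Hmga2, a chromatin protein best known from embryonic tissue, lay at 9.56, 9.57 and 9.63 in single-cultured cells, against 3.56, 3.55 and 3.68 in non-cultured cells, at least 42.7-fold higher. Ankrd1, an ankyrin repeat protein of muscle and a known target of the YAP coactivator, was at least 45.4-fold higher. Inhba, the activin A subunit, was at 10.45, 10.80 and 10.91 in single-cultured cells, against 4.41, 4.31 and 5.06 in non-cultured cells. Its SE was 1.31 in the shared fit, which also holds b.End5, where the arrays were at 5.93, 12.26 and 6.01. The remaining large rises were Col15a1 (6.32), Mmp12 (at least 28.8-fold), Lgals3 (5.63), AA467197 (5.57), Spp1 (5.54), Ltbp2 (5.52) and Egln3, given with the hypoxia genes.

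The largest fall was that of Fosb, an immediate early factor of the AP-1 family, at 4.20, 3.84 and 4.94 in single-cultured cells, against 12.60, 12.36 and 12.63 in non-cultured cells, a difference of -8.20 (SE 0.30), so that its level was 295-fold lower. Ddc, the decarboxylase that turns L-DOPA into dopamine and forms part of the enzymatic barrier, stood at 2.34, 2.92 and 2.83 in single-cultured cells, against 10.77, 10.60 and 10.65 in non-cultured cells. The single-cultured arrays lay below the no-target level, so the level was at least 83.4-fold lower. Car4, a carbonic anhydrase on the surface of capillary endothelium, was 161-fold lower, with 6.0, 6.56 and 5.82 on the arrays of single-cultured cells, against 13.51, 13.41 and 13.46 on those of non-cultured cells. Ptprr, a tyrosine phosphatase, varied more after culture, with 4.10, 5.84 and 4.95 in single-cultured cells, against 12.13, 12.11 and 12.12 in non-cultured cells. Sgpp2, a phosphatase of sphingosine phosphate, was 98.2-fold lower, and the growth factor Ptn 47.6-fold lower. None of the 30 genes with the largest rises and falls had overlapping arrays, as the choice of these genes required.

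**Figure D2:**
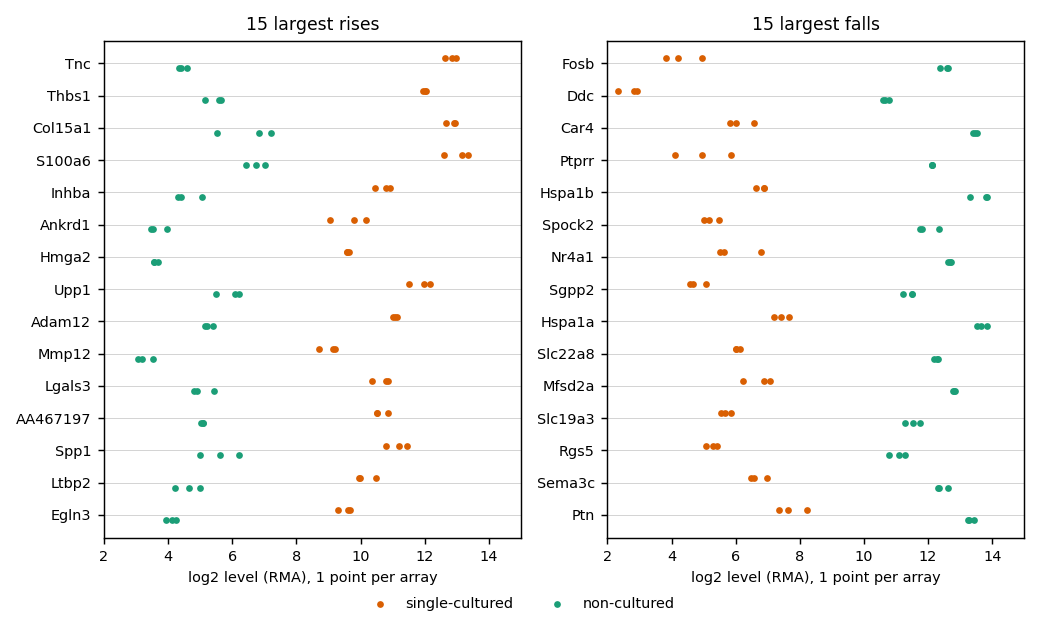
Log2 levels of the 15 genes with the largest rises (left) and the 15 with the largest falls (right), with 1 point for each array of single-cultured (orange) and non-cultured (green) cells. In the left panel every single-cultured point lies to the right of the non-cultured points, and in the right panel to their left. Tnc is at 12.63 to 12.97 against 4.35 to 4.57, and Fosb at 3.84 to 4.94 against 12.36 to 12.63.

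The genes were then grouped into 62 lists by function or cell type, and 592 of the 1976 called genes belong to at least 1 of them. The counts of each list are to be read against the 7.18% of all genes that rose and the 5.82% that fell. Of the 52 functional lists, mitosis, matrix proteases, collagens, laminins and integrins, DNA replication and antioxidant defence had the highest shares of rises, from 37.8% of the measured members in the antioxidant list to 88.5% in mitosis. Capillary markers, interferon response genes, immediate early genes, organic anion carriers and Wnt targets had the highest shares of falls, from 44.4% in Wnt targets to 87.5% in capillary markers. No member of the oxidative phosphorylation list was called.

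**Figure D3:**
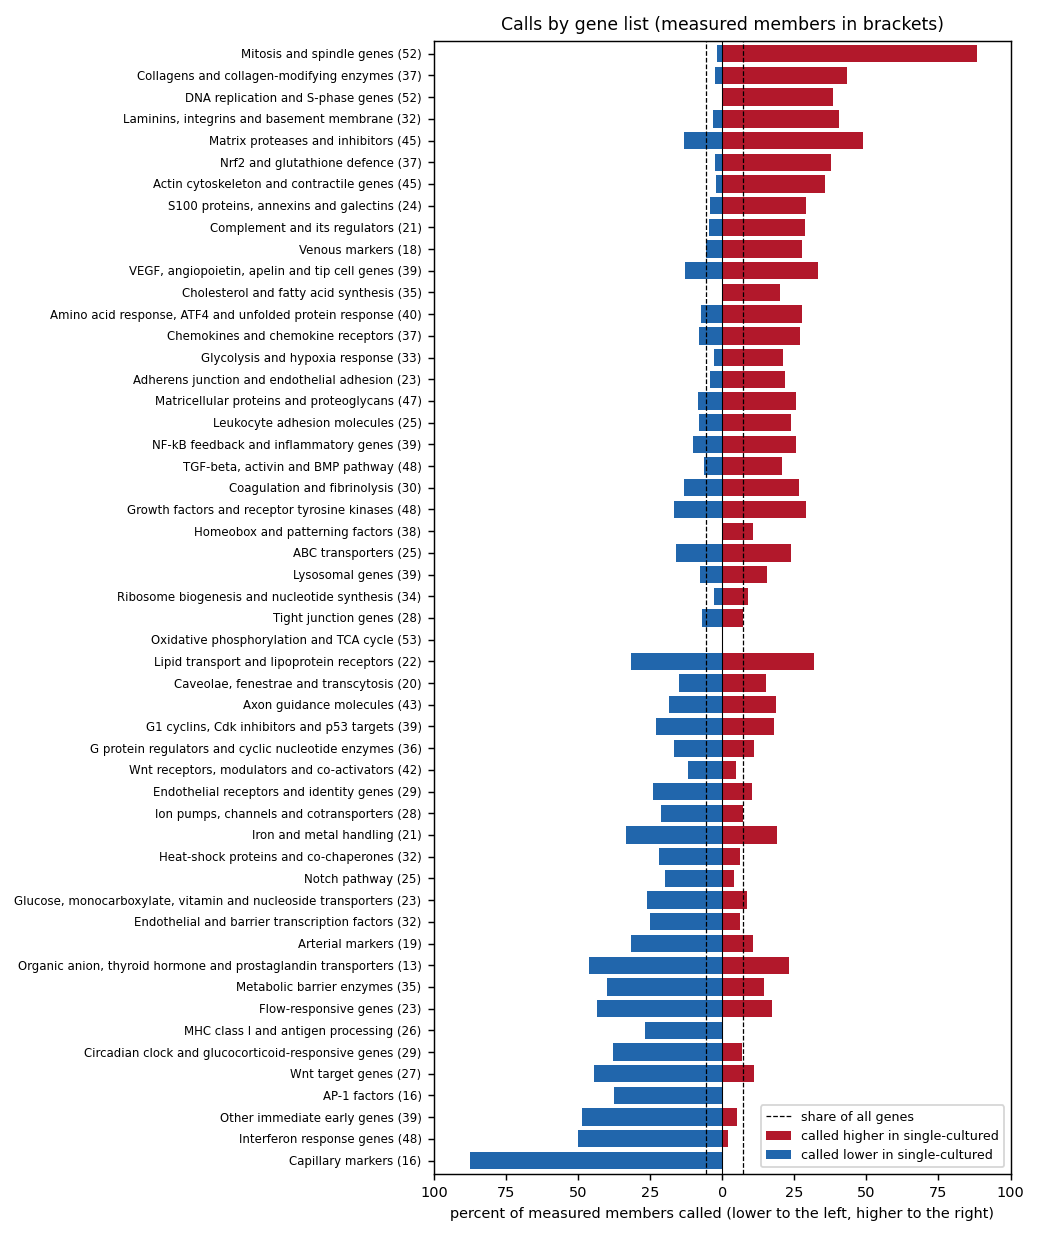
For each of 52 functional lists, the percentage of measured members called higher (red, to the right) or lower (blue, to the left) in single-cultured cells, with the number measured in brackets and dashed lines at the shares of all genes (7.18% and 5.82%). Mitosis and spindle genes stand at the top with 46 of 52 higher, capillary markers at the bottom with 14 of 16 lower, and oxidative phosphorylation has no bar.

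Carriers of the barrier moved in both directions. Of 13 organic anion, thyroid hormone and prostaglandin transporters 6 fell and 3 rose (median log2 difference -0.95). Slc22a8, an organic anion carrier of the brain vessels, was at 6.01, 6.14 and 6.01 in single-cultured cells, against 12.29, 12.31 and 12.18 in non-cultured cells, 73.7-fold lower. The thyroid hormone carrier Slco1c1 fell by 2.86 (SE 0.15). In contrast Slco3a1, which carries prostaglandins and thyroxine, was at 10.42, 10.24 and 10.31 in single-cultured cells, against 5.63, 5.78 and 5.40 in non-cultured cells, 26.4-fold higher, and Slc22a23 and Slc22a4 rose by 3.14 and 1.59. Among 23 carriers of sugars, monocarboxylates, vitamins and nucleosides, 6 fell and 2 rose (median -0.13). Slc19a3, a thiamine carrier, lay at 5.84, 5.53 and 5.66 on the arrays of single-cultured cells, against 11.76, 11.52 and 11.29 on those of non-cultured cells, a difference of -5.84 (SE 0.22). The riboflavin carrier Slc52a3 (-3.67) and the monocarboxylate carrier family member Slc16a4 (-4.22) fell. The glucose carrier Slc2a1, at 13.67, 13.42 and 13.52 in single-cultured cells, against 13.84, 13.79 and 13.91 in non-cultured cells, did not pass (adjusted p = 0.251). The lactate exporter Slc16a3 rose by 2.29 (SE 0.35).

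Iron, metal and ion handling genes were also split. Of 21 iron and metal genes 4 rose and 7 fell. Transferrin, Trf, rose by 2.69 (SE 0.24) and the haem-degrading enzyme Hmox1 by 2.62 (SE 0.23). The metal-binding metallothioneins Mt1 and Mt2 stood 8.19-fold and 6.95-fold lower, Mt1 at 7.45, 8.26 and 7.17 in single-cultured cells, against 10.36, 10.72 and 10.90 in non-cultured cells. The zinc carrier Slc39a10 fell by 2.64 (SE 0.18). Among 28 ion pumps, channels and cotransporters 2 rose and 6 fell, Car4 first among the falls. The chloride channel protein Clic5 fell by 4.47 (SE 0.48). The cotransporters Slc12a2 and Slc12a7 rose by 1.61 and 1.13.

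Drug efflux pumps moved in both directions. Abcb1a, which encodes the P-glycoprotein typical of mouse brain capillaries, was at 10.65, 10.89 and 10.60 in single-cultured cells, against 13.01, 12.89 and 13 in non-cultured cells, a difference of -2.25 (SE 0.42). Its close relative Abcb1b was at 8.45, 9.29 and 8.52 in single-cultured cells, against 4.88, 5.12 and 5.54 in non-cultured cells, 11.9-fold higher. The 6 arrays of neither gene overlapped between groups, and the shifts ran in opposite directions. The organic anion pumps Abcc1 and Abcc3 rose as well, Abcc1 by 2.58 (SE 0.21) and Abcc3 at least 7.29-fold, while Abcc6 fell by 3.22 (SE 0.18). The efflux pump Abcg2 stood at 12.13, 12.07 and 12.06 in single-cultured cells, against 12.75, 12.73 and 13.05 in non-cultured cells, a difference of -0.76 that lies under the 2-fold minimum. Of 25 measured ABC transporters 6 rose and 4 fell, with 2 falls when non-cultured replicate 3, single-cultured replicate 1 or single-cultured replicate 3 was left out. Abcc9, a channel subunit of pericytes, was called lower at 3.86, 4.14 and 4.42 in single-cultured cells, against 6.92, 6.76 and 7.03 in non-cultured cells. Of its 3 single-cultured arrays 2 lay at the no-target level. It lost its call when any 1 of the 6 arrays was left out, but kept it in a fit of only the 6 arrays. The shared fit also holds co-cultured and b.End5 arrays, where the SD of Abcc9 was 2.02 and 1.36. It was 0.28 in single-cultured and 0.13 in non-cultured cells.

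Lipid handling changed on both sides, with 7 rises and 7 falls among 22 genes. Mfsd2a, the carrier that takes docosahexaenoic acid into the brain and restrains transcytosis, was at 6.23, 7.07 and 6.88 in single-cultured cells, against 12.77, 12.81 and 12.83 in non-cultured cells, 67.5-fold lower. The phospholipid transfer protein Pltp and the lipoprotein receptor Lsr were 16.7-fold and 14.8-fold lower. Lipoprotein lipase, Lpl, was 15.9-fold higher, at 10.57, 10.25 and 10.11 on the arrays of single-cultured cells, against 6.29, 6.27 and 6.39 on those of non-cultured cells. Gpihbp1, which anchors that lipase on capillaries of peripheral tissues, rose by 3.80 (SE 0.52). The receptor Vldlr rose, at 6.85, 7.58 and 7.33 in single-cultured cells, against 3.57, 4.69 and 4.10 in non-cultured cells, with 2 of the 3 non-cultured arrays at the no-target level. Among 20 genes of caveolae, fenestrae and transcytosis 3 rose and 3 fell. Plvap, the diaphragm protein of fenestrae that the mature barrier lacks, was at 8.24, 8.79 and 9.42 in single-cultured cells, against 5.62, 6.99 and 7.57 in non-cultured cells, a rise of 2.09 (SE 0.52). Cav1 did not pass the 2-fold minimum (0.66), the caveolar coat gene Cavin3 rose by 1.67, and the insulin and leptin receptors Insr (-1.47) and Lepr (-2.26) fell.

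Enzymes of the metabolic barrier fell more often than they rose, with 14 falls and 5 rises among 35 (median -0.61). Beside Ddc, the retinal dehydrogenase Aldh1a1 was at 3.44, 3.95 and 3.63 in single-cultured cells, against 8.77, 8.81 and 9.0 in non-cultured cells, at least 23.7-fold lower. Alkaline phosphatase, Alpl, a histochemical marker of brain capillaries and arterioles, fell by 4.66 (SE 0.14). In the other direction Cyp1a1, the classic target of the aryl hydrocarbon receptor, was at 7.92, 8.09 and 8.54 in single-cultured cells, against 4.23, 3.57 and 3.05 in non-cultured cells. It was called higher (adjusted p = 1.18e-05), but 2 of the 3 non-cultured arrays lay at the no-target level and the other just above it, so no fold is given. Cyp1b1, another target of that receptor, was at least 3.66-fold higher. The glucuronosyltransferase value listed as Ugt1a7c rose by 3.17 (SE 0.42), but its probe set gives the same values for 7 other Ugt1a genes, so which of them moved is uncertain. The glutathione transferase Gsta4 (-1.46) and the prostaglandin synthase Ptgds (-1.33) fell. The call of Gsta4 was lost without any 1 of the 6 arrays, and that of Ptgds without any except non-cultured replicates 1 and 2. A fit of only the 6 arrays also ended the call of Ptgds.

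Tight junction genes were called about as often as all genes. Of 28 measured, 2 rose and 2 fell. Claudin 5, the main claudin of brain endothelium, was at 12.89, 12.66 and 12.96 in single-cultured cells, against 13.66, 13.63 and 13.56 in non-cultured cells, and its arrays did not overlap although the difference of -0.78 lay under the 2-fold minimum. Occludin, Ocln (-0.79), and the scaffold Tjp1 (-0.42) did not pass either. The angulin Lsr of tricellular contacts, named above, and the adhesion protein Jam2 did fall, Jam2 to 8.08, 8.47 and 8.61 in single-cultured cells, against 11.95, 11.93 and 11.88 in non-cultured cells. The 2 rises sat at the minimum: the polarity protein Pard6g (1.01), and Cldn1, which lay at the no-target level on all arrays of both groups and so has no fold. Both calls were lost without non-cultured or single-cultured replicate 2, which leaves 0 rises. Among 23 genes of adherens junctions, gap junctions and endothelial adhesion 5 rose and 1 fell. The gap junction proteins Gja4 and Gja5, typical of arterial endothelium, rose by 2.34 (SE 0.26) and 1.85 (SE 0.40), and Gjc1 fell by 1.95 (SE 0.26), with 2 falls in this list when single-cultured replicate 3 was left out. T-cadherin, Cdh13, rose by 3.41 (SE 0.53) and the adhesion proteins Mcam and Nectin2 by 2.79 and 2.61.

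Genes that mark all endothelium were present on every array. The endothelial cadherin Cdh5 was at 12.59, 12.43 and 12.54 in single-cultured cells, against 12.17, 12.00 and 11.96 in non-cultured cells, and Pecam1, the target of the beads, at 13.04, 12.40 and 13.09 in single-cultured cells, against 12.69, 12.44 and 12.37 in non-cultured cells. Pecam1 overlapped between the groups, and neither difference (0.48 and 0.34) reached the minimum. The VEGF receptor Kdr (-0.39) and von Willebrand factor, Vwf (0.80), did not pass. Of 12 pan-endothelial markers 0 rose and 2 fell, namely the VEGF receptor Flt1 (-1.44, SE 0.21) and the angiopoietin receptor Tek (-1.01, SE 0.11), the call of Tek being lost without single-cultured replicate 3. Of 29 endothelial receptors and identity genes 3 rose and 7 fell. The lectin Clec14a rose by 1.92 (SE 0.14), the protein C receptor Procr by 1.60 (SE 0.14) and Ecscr by 1.55 (SE 0.14). The endothelial nitric oxide synthase Nos3 (-1.65, SE 0.25) and the sialomucin Podxl (-1.55, SE 0.22) fell.

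Transcription factors of endothelium and barrier fell in 8 of 32 cases and rose in 2, with 5 falls when non-cultured replicate 1 or single-cultured replicate 2 was left out. Tbx3 (-2.77, SE 0.23), Foxc1 (-2.15, SE 0.20), Foxf1 (-1.76, SE 0.21) and Foxq1 (-1.49, SE 0.20) fell under every left-out array. Foxq1, one of the factors enriched in brain endothelium, was at 10.58, 10.61 and 10.94 in single-cultured cells, against 12.22, 12.11 and 12.27 in non-cultured cells. Sox17 (-1.13) passed narrowly and lost its call without any 1 of the 6 arrays, and Foxf2 (-0.84) did not pass. Foxc2, a factor of lymphatic and arterial development, was at 6.58, 7.59 and 7.09 in single-cultured cells, against 3.11, 3.76 and 4.47 in non-cultured cells and was called higher, with 2 of the 3 non-cultured arrays at the no-target level. Meox1 rose by 2.09 (SE 0.26).

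Genes that laminar flow is known to keep high were among the large falls. Klf2 was at 6.58, 7.52 and 7.36 in single-cultured cells, against 12.10, 12.72 and 12.70 in non-cultured cells, 40.9-fold lower. Its relative Klf4 was at 7.68, 7.88 and 8.57 in single-cultured cells, against 12.89, 12.97 and 13.30 in non-cultured cells, 32.3-fold lower (adjusted p = 6.56e-08). The groups were separated by over 4 log2 units for either gene. Of 23 flow-responsive genes 10 fell and 4 rose (median -0.65). Klf11 fell by 2.13 (SE 0.16) beside Nos3. The rises were led by Angpt2, the destabilising ligand of Tek that flow represses, at 12.95, 13.04 and 13.08 in single-cultured cells, against 9.04, 8.74 and 8.92 in non-cultured cells, 17.4-fold higher. Cyp1b1, at least 3.66-fold higher, and Nqo1 (1.99, SE 0.23) also rose in this list. The list mixes genes that flow raises with genes that it represses, so its counts and median give no direction of a flow response. Klf2 and Klf4 are also immediate early genes and are counted in that list too.

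Of 27 Wnt targets 12 fell and 3 rose (median -0.62). Axin2, the feedback inhibitor used as the standard readout of canonical Wnt signalling, was at 6.65, 6.33 and 6.58 in single-cultured cells, against 11.57, 11.45 and 11.30 in non-cultured cells, 30.3-fold lower. Notum, a secreted enzyme that inactivates Wnt ligands, fell by 4.54 (SE 0.20). Spock2, a proteoglycan, was at 5.02, 5.16 and 5.48 on the arrays of single-cultured cells, against 12.35, 11.81 and 11.74 on those of non-cultured cells, 108-fold lower. The DNA-binding partners of beta-catenin fell with them, Lef1 (-3.11, SE 0.21) and Tcf7 (-2.48, SE 0.17) alike. The targets that rose were Myc (1.74), Sp5 (1.5) and the cyclin Ccnd1 (1.46), and Myc and Ccnd1 also belong to the growth lists below. Among 42 receptors, modulators and co-activators 2 rose and 5 fell. The secreted antagonist Frzb was at 8.39, 9.0 and 8.53 in single-cultured cells, against 4.87, 4.36 and 4.43 in non-cultured cells, 16.9-fold higher, and the antagonist Dkk2 rose by 2.42 (SE 0.41). Reck, the anchored protein that brain endothelium needs to receive Wnt7 ligands, fell by 2.07 (SE 0.17). The core of the TCF and LEF motif, CTTTGA, was found on either strand within 250 bases before to 50 after the start in 4 of 17 Wnt target promoters of RefSeq (23.5%, GRCm38.p6), against 13.5% of the promoters of all 12037 measured genes with such a window.

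The Notch list held 5 falls and 1 rise among 25 genes. The ligand Dll1 (-3.28, SE 0.32) and the target Hes1 (-1.32, SE 0.23) fell, while the feedback regulator Nrarp rose by 1.27 (SE 0.16). Capillary markers fell in 14 of 16 cases with 0 rises (median -3.19), including Car4, Spock2, Slc22a8 and Mfsd2a. Arterial markers fell in 6 and rose in 2 of 19. Gkn3, an arterial gene of the mouse brain, was at 5.88, 6.48 and 5.90 in single-cultured cells, against 10.94, 11.64 and 11.88 in non-cultured cells, 42.2-fold lower, whereas the rises were those of Gja4 and Gja5. Vegfc (-2.11, SE 0.30) and Stmn2 (-2.53, SE 0.41) fell. Venous markers rose in 5 and fell in 1 of 18, with 3 rises when single-cultured replicate 1 was left out. Ackr1, the chemokine-binding receptor of venules, was at 10.78, 10.90 and 9.90 in single-cultured cells, against 5.46, 6.01 and 5.52 in non-cultured cells, 29.0-fold higher. The 1 venous fall was Slc38a5, a glutamine carrier (-4.22).

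**Figure D4:**
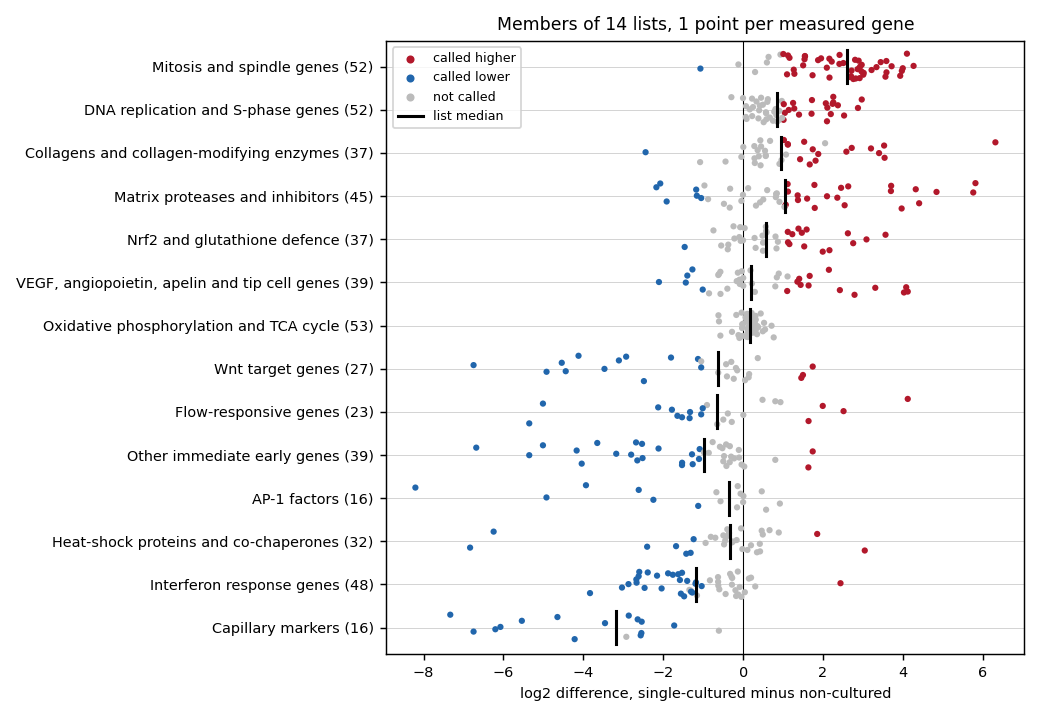
The log2 difference of single-cultured minus non-cultured cells for every measured member of 14 lists, 1 point per gene, coloured by call, with a black bar at the list median. The median stands at 2.59 for mitosis and spindle genes and at -3.19 for capillary markers, and members of the oxidative phosphorylation list gather near 0 with a median of 0.16.

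Angiogenic signals rose more often than they fell, with 13 rises and 5 falls among 39 genes of the VEGF, angiopoietin, apelin and tip cell list. Besides Angpt2, placental growth factor, Pgf, was at 10.59, 10.05 and 10.46 in single-cultured cells, against 6.29, 6.21 and 6.36 in non-cultured cells, 16.9-fold higher. Esm1, a proteoglycan of tip cells, was 16.3-fold higher although its non-cultured arrays spread widely, with 9.33, 9.82 and 9.94 on the arrays of single-cultured cells, against 4.39, 5.93 and 6.69 on those of non-cultured cells. The vasoactive peptide Adm rose by 1.64 (SE 0.18). Vegfc and Flt1, given above, fell, as did the chemokine scavenger Ackr3 (-1.27, SE 0.27). Angpt1, the stabilising ligand of Tek, was at 3.01, 3.21 and 3.22 in single-cultured cells, against 4.47, 4.32 and 4.85 in non-cultured cells, at least 1.19-fold lower.

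In the TGF-beta, activin and BMP pathway 10 of 48 genes rose and 3 fell. Beside Inhba and the binding protein Ltbp2, the ligand Bmp4 was at 11.05, 10.70 and 11.10 in single-cultured cells, against 6.76, 6.91 and 6.62 in non-cultured cells, 18.2-fold higher. The binding protein Ltbp4 (-2.75, SE 0.34) and the ligand Tgfb2 (-1.46, SE 0.19) fell. The co-receptor Tgfbr3 (-1.05) lost its call without non-cultured replicate 1 or single-cultured replicate 2.

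Growth factors and receptor tyrosine kinases rose in 14 of 48 cases and fell in 8. The receptor Kit was at 9.64, 8.88 and 9.63 in single-cultured cells, against 5.54, 4.66 and 4.86 in non-cultured cells, 20.6-fold higher, and the insulin-like growth factor Igf1 11-fold higher. Igf2 was 7.36-fold lower. Axon guidance genes moved evenly, with 8 rises and 8 falls of 43. The receptor Ephb1 was at 9.09, 9.0 and 7.94 in single-cultured cells, against 3.59, 3.13 and 3.44 in non-cultured cells, at least 22.7-fold higher, and the repulsive ligand Sema3a was called higher at 8.66, 8.83 and 8.84 in single-cultured cells, against 3.82, 3.90 and 4.53 in non-cultured cells, with 2 of the 3 non-cultured arrays at the no-target level. Sema3e, a ligand of plexin D1 in vessel patterning, was at least 3.30-fold higher. Its relative Sema3c was 53.3-fold lower, at 6.48, 6.98 and 6.58 on the arrays of single-cultured cells, against 12.63, 12.30 and 12.32 on those of non-cultured cells, and the receptors Epha4 (-2.47) and Neo1 (-2.72) fell. Semaphorins of the same class thus lay on both sides. Of 36 G protein regulators and cyclic nucleotide enzymes 4 rose and 6 fell. The phosphodiesterase Pde4b rose by 2.09 (SE 0.30) and the regulator Rgs1 by 2.31 (SE 0.39). The peptide Edn3 was 25.5-fold lower.

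Immediate early genes, which many stimuli induce within minutes, fell more often than they rose. Of 16 AP-1 factors 6 fell and 0 rose, with 1 rise when non-cultured replicate 1 or single-cultured replicate 2 was left out. Besides Fosb, Fos was at 8.27, 9.32 and 9.33 in single-cultured cells, against 13.78, 13.84 and 14.06 in non-cultured cells, 30.3-fold lower, and Atf3 at 9.35, 9.07 and 9.76 in single-cultured cells, against 13.23, 13.33 and 13.42 in non-cultured cells, 15.3-fold lower. On each of these genes the lowest non-cultured array was over 2.5 log2 units above the highest single-cultured array. Of 39 other immediate early genes 19 fell and 2 rose (median -0.98). The orphan receptor Nr4a1 was at 5.52, 5.64 and 6.79 in single-cultured cells, against 12.70, 12.62 and 12.67 in non-cultured cells, 103-fold lower, and the antiproliferative gene Btg2 fell by 2.52 (SE 0.26). The rises were Myc, at 9.74, 9.84 and 10.04 in single-cultured cells, against 8.17, 8.25 and 7.99 in non-cultured cells, and the transcription factor Nfil3 (1.63, SE 0.32). The cAMP response element TGACGTCA, searched on either strand from 250 bases before to 50 after the start site in RefSeq (GRCm38.p6), was found in 0 of 14 AP-1 promoters and in 2 of 30 promoters of the other immediate early genes, against 2.74% of all promoters.

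Stress-inducible chaperones of the Hsp70 family fell with them. Hspa1b was at 6.88, 6.64 and 6.9 in single-cultured cells, against 13.84, 13.79 and 13.29 in non-cultured cells, 114-fold lower. Hspa1a, its near-identical copy, was at 7.42, 7.66 and 7.20 in single-cultured cells, against 13.66, 13.82 and 13.53 in non-cultured cells, 75.9-fold lower, and since transcripts of these copies can hybridise to the same probes, the values may not be separate. The co-chaperone Dnajb1 fell by 2.40 (SE 0.15). In all, 7 of 32 heat-shock proteins and co-chaperones fell and 2 rose, the rises being the small heat-shock protein Cryab (3.04, SE 0.38) and Hspa4l (1.85, SE 0.29). The heat-shock element core GAANNTTC was found on either strand in 10 of 25 promoters of this list (40.0%) and in 6.0% of all promoters. The Hspa1b promoter is shown because that gene had the largest fall of the list. It lies at chr17:34959189-34959488 on the minus strand of GRCm38.p6, is written 5′ to 3′ from RefSeq, and has the match in capitals.
Hspa1b: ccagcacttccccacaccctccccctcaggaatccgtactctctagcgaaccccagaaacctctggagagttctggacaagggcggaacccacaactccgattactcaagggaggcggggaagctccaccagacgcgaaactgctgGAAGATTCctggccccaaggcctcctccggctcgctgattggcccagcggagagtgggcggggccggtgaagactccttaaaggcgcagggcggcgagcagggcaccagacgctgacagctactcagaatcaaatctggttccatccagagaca

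Genes of the NF-kB list went both ways. Of 39 feedback and inflammatory genes 10 rose and 4 fell. The inhibitors Nfkbia (-1.48, SE 0.14) and Nfkbiz (-2.77, SE 0.26) and the interferon regulator Irf1 (-1.40, SE 0.17) fell. The endotoxin receptor Tlr4 was at 9.91, 9.88 and 9.83 in single-cultured cells, against 6.78, 6.98 and 6.57 in non-cultured cells, 8.58-fold higher (adjusted p = 1.46e-08). Tnfaip2 was 12.4-fold higher, the secreted proteins Lcn2 5.37-fold and Ptx3 at least 4.34-fold higher. Of 29 genes of the circadian clock and of the glucocorticoid response 11 fell and 2 rose (median -0.57). Tsc22d3, the glucocorticoid-induced leucine zipper, was at 7.58, 7.52 and 7.86 in single-cultured cells, against 11.45, 11.36 and 11.87 in non-cultured cells, 15-fold lower, next to Mt1 and Mt2.

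Of 40 amino acid response and unfolded protein genes 11 rose and 3 fell. Mthfd2, an enzyme of mitochondrial folate metabolism, was at 9.73, 9.58 and 9.82 in single-cultured cells, against 5.92, 5.52 and 5.36 in non-cultured cells, 17.3-fold higher, and the serine synthesis enzyme Psat1 rose by 2.63 (SE 0.23). The phosphatase subunit Ppp1r15a, which reverses the translational block of this response, was at 7.49, 7.70 and 7.69 in single-cultured cells, against 10.74, 10.90 and 10.76 in non-cultured cells, 9.01-fold lower. Dnajb9 (-1.31, SE 0.14) and Ddit3 (-1.08, SE 0.15) fell, the call of Ddit3 being lost without non-cultured replicate 3.

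Antioxidant defence genes of the Nrf2 list rose in 14 of 37 cases and fell in 1. The peroxidase Gpx8 was at 9.69, 10.34 and 10.06 in single-cultured cells, against 6.20, 6.44 and 6.75 in non-cultured cells, 11.8-fold higher. Malic enzyme, Me1, rose by 3.09 (SE 0.22), the transferase Gsto1 by 2.75 (SE 0.27) and the quinone reductase Nqo1 by 1.99 (SE 0.23), beside Hmox1 above. The 1 fall was Gsta4, given above.

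Cell division genes formed the list with the largest share of rises. Of 52 mitosis and spindle genes 46 rose, 1 fell and 5 did not pass (median 2.59), against 7.18% of all genes that rose. The checkpoint kinase Bub1 was at 7.34, 7.87 and 7.43 in single-cultured cells, against 3.14, 3.02 and 3.68 in non-cultured cells, at least 10.4-fold higher. Cyclin B2, Ccnb2, was at 8.64, 8.98 and 9.07 in single-cultured cells, against 5.32, 5.37 and 4.01 in non-cultured cells, 16-fold higher. The cytokinesis protein Anln was called higher at 8.09, 8.37 and 8.36 in single-cultured cells, against 4.95, 3.45 and 4.12 in non-cultured cells, with 2 of the 3 non-cultured arrays at the no-target level. Top2a, the topoisomerase that untangles chromosomes and, like Isg15 below, a gene chosen after its values were seen, was at 9.01, 9.41 and 9.26 in single-cultured cells, against 5.53, 5.60 and 4.63 in non-cultured cells. The 1 fall was Pttg1, securin (-1.07, SE 0.11). Genes of DNA replication and S phase rose in 20 of 52 cases with 0 falls, and by less (median 0.84). The ribonucleotide reductase subunit Rrm2 was at 10.03, 10.06 and 9.99 in single-cultured cells, against 7.08, 7.34 and 7.03 in non-cultured cells. Regulators of G1 and p53 targets split into 7 rises and 9 falls of 39. Cyclin D1, Ccnd1, rose by 1.46 (SE 0.18), while the inhibitor of cyclin-dependent kinases Cdkn1c was at 7.57, 6.95 and 7.40 in single-cultured cells, against 11.69, 11.58 and 11.34 in non-cultured cells, 18.8-fold lower, and the inhibitor Cdkn2d fell by 1.90 (SE 0.28). The p53 targets Phlda3 and Zmat3 rose by 1.69 and 1.59.

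Motif shares here and for the other lists cover all measured members with a window, called or not, so they do not bear on the calls. Promoters of the mitosis list were searched for 2 motifs. The letters TTTGAA, the core of the cell cycle gene homology region bound by the DREAM and MuvB complexes, were found on either strand in 30 of its 43 promoters with a window (69.8%), against 13.1% of all 12037. The letters CCAAT, the box bound by the factor NF-Y, were found in 31 of 43 (72.1%), against 38.4%. Overlapping matches were counted, matches may share end bases, and a match is a description of letters and not evidence of binding. The promoters of Ccnb2 (chr9:70421505-70421804, minus strand) and Top2a (chr11:99024140-99024439, minus strand) are shown because both genes rose about 16-fold and hold both motifs. In GRCm38.p6 RefSeq windows written 5′ to 3′, capitals mark CCAAT or its reverse ATTGG and TTTGAA or its reverse TTCAAA. Ccnb2 has 3 and 2 matches of these motifs and Top2a 6 and 2.
Ccnb2: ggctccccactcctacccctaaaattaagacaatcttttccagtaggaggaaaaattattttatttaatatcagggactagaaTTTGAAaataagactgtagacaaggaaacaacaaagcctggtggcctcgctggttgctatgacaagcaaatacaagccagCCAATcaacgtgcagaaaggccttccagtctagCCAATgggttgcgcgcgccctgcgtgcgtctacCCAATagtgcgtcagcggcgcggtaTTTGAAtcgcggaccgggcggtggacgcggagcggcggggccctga
Top2a: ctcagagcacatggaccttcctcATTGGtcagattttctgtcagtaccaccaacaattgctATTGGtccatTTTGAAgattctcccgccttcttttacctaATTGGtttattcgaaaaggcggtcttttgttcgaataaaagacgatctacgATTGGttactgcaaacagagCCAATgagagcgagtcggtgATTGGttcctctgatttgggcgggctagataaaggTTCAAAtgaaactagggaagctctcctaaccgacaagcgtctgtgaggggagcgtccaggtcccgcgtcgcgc

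Transcripts of the extracellular matrix rose more often than they fell. Of 37 collagens and collagen-modifying enzymes 16 rose and 1 fell (median 0.96). Col15a1, a collagen of basement membranes, was at 12.93, 12.92 and 12.67 in single-cultured cells, against 5.52, 6.84 and 7.21 in non-cultured cells, 79.6-fold higher. The crosslinking enzyme Loxl2 and the collagen Col8a1 rose by 3.54 (SE 0.20) and 3.53 (SE 0.44). The collagen Col14a1 fell, at 3.97, 4.86 and 4.07 in single-cultured cells, against 6.73, 6.97 and 6.53 in non-cultured cells, with 2 of the 3 single-cultured arrays at the no-target level. Beside these collagens, fibroblast markers gave 3 rises and 3 falls of 16, with a summed level of 10.91 to 11.44 in single-cultured cells, against 11.42 to 11.72 in non-cultured cells, where Dpt and Lum were at the no-target level in both groups. The fibroblast collagens Col3a1 and Col1a1 rose by 1.81 (SE 0.46) and 1.67 (SE 0.51), and Col1a1 lost its call without any 1 of the 6 arrays. Of 32 laminins, integrins and other basement membrane genes 13 rose and 1 fell, with 2 falls when replicate 3 of either group, non-cultured replicate 2 or single-cultured replicate 1 was left out. The integrin Itga8 was at 9.55, 9.78 and 9.48 in single-cultured cells, against 4.63, 4.36 and 4.68 in non-cultured cells, 33.0-fold higher, the laminin chain Lamb1 11.9-fold and the collagen receptor Itga2 6.72-fold higher. Lamb2, another laminin beta chain, was at 9.59, 9.63 and 9.69 in single-cultured cells, against 11.42, 11.28 and 11.06 in non-cultured cells, a difference of -1.62 (SE 0.16).

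Matricellular proteins and proteoglycans rose in 12 of 47 cases and fell in 4. After Tnc and Thbs1 the largest rises were Spp1, osteopontin, at 11.44, 11.20 and 10.81 in single-cultured cells, against 4.99, 5.61 and 6.22 in non-cultured cells, and the hyaluronan receptor Cd44 (4.13, SE 0.51). Elastin, Eln (-2.67, SE 0.16), and Thbs2 (-2.08, SE 0.48) fell. Matrix proteases and their inhibitors rose in 22 of 45 cases and fell in 6 (median 1.04). The inhibitor Timp1 was at 10.07, 10.05 and 10.56 in single-cultured cells, against 5.36, 5.38 and 5.42 in non-cultured cells, 28.7-fold higher, next to Adam12 and Mmp12. The protease Adamts10 fell by 1.91 (SE 0.18).

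The plasminogen activators moved in opposite directions. Urokinase, Plau, was at 9.57, 9.59 and 9.72 in single-cultured cells, against 5.21, 5.07 and 5.39 in non-cultured cells, 21.2-fold higher, while tissue plasminogen activator, Plat, was at 9.21, 9.76 and 10.04 in single-cultured cells, against 11.89, 11.89 and 11.75 in non-cultured cells, 4.51-fold lower. Neither of these genes had overlapping arrays. Of 30 coagulation and fibrinolysis genes 8 rose and 4 fell. Tissue factor, F3, was at least 10.2-fold higher and the cofactor F5 24.7-fold lower. Entpd1, which degrades platelet-activating ADP, fell by 1.57 (SE 0.17).

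Of 45 actin and contractile genes 16 rose and 1 fell. Beside Ankrd1, the smooth muscle protein Tagln was at 11.81, 11.23 and 12.46 in single-cultured cells, against 7.83, 8.11 and 8.61 in non-cultured cells, 12.6-fold higher, and Acta2 at 12.18, 12.69 and 12.65 in single-cultured cells, against 8.78, 9.59 and 10.34 in non-cultured cells. The Z-line adaptor Pdlim1 rose by 3.60 (SE 0.34), and the fall, Ezr (-1.05), lost its call without single-cultured replicate 2. Tagln and Acta2 are also smooth muscle markers. Of 10 such markers measured 5 rose and 1 fell (0 falls without replicate 2 or 3 of either group). Their summed level, which includes Tagln and Acta2, was 13.33 to 13.83 in single-cultured cells, against 11.15 to 11.84 in non-cultured cells. Myh11, the most specific smooth muscle myosin, did not pass (0.28, chosen after its value was seen), and the part of other cells in these rises was not tested. Of 24 S100 proteins, annexins and galectins 7 rose and 1 fell (3 falls without b.End5 replicate 2). S100a6 was at 13.17, 12.59 and 13.34 in single-cultured cells, against 6.43, 6.75 and 7.03 in non-cultured cells. Lgals1 rose by 4.86 (SE 1.04) and Lgals3 by 5.63 (SE 0.41), and Lgals4 fell by 1.26 (SE 0.27).

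Adhesion molecules for leukocytes rose more often than they fell, with 6 rises and 2 falls of 25, 1 fall without replicate 3 of either group. E-selectin, Sele, which cytokines induce on endothelium, was at 10.06, 10.48 and 11.07 in single-cultured cells, against 6.33, 6.20 and 5.75 in non-cultured cells, 21.8-fold higher. P-selectin, Selp, was at 8.45, 9.12 and 6.97 in single-cultured cells, against 4.57, 4.99 and 5.38 in non-cultured cells. Its arrays did not overlap, but the call (adjusted p = 0.019) was lost without replicate 1 or 2 of either group. Of 37 chemokine genes 10 rose, 6 without non-cultured replicate 3, and 3 fell, 5 without b.End5 replicate 2. Ccl2, which attracts monocytes, was at 11.82, 10.84 and 11.66 in single-cultured cells, against 5.81, 6.40 and 6.80 in non-cultured cells, 34.4-fold higher, and Ccl5 rose by 3.62 (SE 0.61). The neutrophil attractant Cxcl1 fell by 1.28 (SE 0.21), and the platelet chemokine Ppbp was at least 9.99-fold lower. Phagocytes also make chemokines, and their markers moved with the rises: 15 of 26 rose, with a summed level of 14.16 to 14.85 in single-cultured cells, against 11.97 to 12.60 in non-cultured cells, and their part in these values was not tested.

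Of 48 interferon response genes 24 fell and 1 rose (median -1.19). Irf7, the factor that amplifies the type I interferon response, was at 5.46, 4.77 and 5.29 in single-cultured cells, against 9.20, 9.03 and 8.79 in non-cultured cells, 14.3-fold lower. The antiviral enzyme Rsad2, viperin, was at 7.41, 7.51 and 7.44 in single-cultured cells, against 10.48, 10.30 and 10.19 in non-cultured cells, and its genomic neighbour Cmpk2 fell by 3.03 (SE 0.48). Isg15, a ubiquitin-like protein of this response, was at 8.53, 7.95 and 8.64 in single-cultured cells, against 11.43, 10.59 and 11.11 in non-cultured cells. The 1 rise was Irf8, a factor best known from myeloid cells, by 2.44 (SE 0.44). Genes of MHC class I and antigen processing fell in 7 of 26 cases with 0 rises, led by the non-classical class I genes H2-T24 (-3.61, SE 0.21) and H2-T23 (-1.82, SE 0.16), close relatives whose probes may share transcripts. The class II gene H2-Aa fell by 1.75 (SE 0.26).

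The core of the interferon-stimulated response element, read as GAAA, any 2 bases and GAAA, was found on either strand in 19 of 37 promoters of the interferon list (51.4%), against 2.97% of all promoters. Windows of Isg15 (chr4:156200769-156201068, minus strand) and Rsad2 (chr12:26456403-26456702, minus strand) are shown as members that fell and hold the motif, from RefSeq on GRCm38.p6 and 5′ to 3′. Capitals mark 3 overlapping matches in Isg15 and 1 match, on the reverse strand, in Rsad2.
Isg15: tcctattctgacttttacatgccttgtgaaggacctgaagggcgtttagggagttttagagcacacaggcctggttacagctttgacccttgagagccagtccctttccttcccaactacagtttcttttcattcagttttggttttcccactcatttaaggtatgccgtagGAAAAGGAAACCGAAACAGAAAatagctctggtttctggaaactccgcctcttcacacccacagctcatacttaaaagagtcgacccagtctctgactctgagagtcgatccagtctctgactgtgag
Rsad2: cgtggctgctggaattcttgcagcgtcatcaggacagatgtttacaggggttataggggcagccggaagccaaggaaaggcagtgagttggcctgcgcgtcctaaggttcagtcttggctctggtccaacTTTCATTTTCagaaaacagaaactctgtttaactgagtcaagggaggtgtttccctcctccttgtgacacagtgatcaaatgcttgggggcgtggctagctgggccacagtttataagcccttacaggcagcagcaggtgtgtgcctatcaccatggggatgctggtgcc

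Of 21 complement genes 6 rose and 1 fell, with 2 falls when non-cultured replicate 1 or single-cultured replicate 2 was left out. C1qb, a chain of the recognition protein C1q that microglia and macrophages make, was at 11.18, 10.11 and 10.09 in single-cultured cells, against 5.79, 7.31 and 8.49 in non-cultured cells, and the receptor C5ar1 rose by 2.61 (SE 0.40). The receptor C3ar1 rose at 7.06, 6.27 and 6.71 in single-cultured cells, against 4.08, 3.88 and 4.48 in non-cultured cells, with 2 of the 3 non-cultured arrays at the no-target level. Among 39 lysosomal genes 6 rose and 3 fell. Gpnmb, a membrane protein of phagocytes, was at 9.89, 8.28 and 9.02 in single-cultured cells, against 4.72, 4.91 and 4.50 in non-cultured cells, and cathepsin S, Ctss, rose by 2.10 (SE 0.35). Cathepsin H, Ctsh (-1.12, SE 0.19), and the lysosomal regulator Tfeb (-1.22, SE 0.16) fell. C1qb and Ctss also belong to the markers of microglia and macrophages. The summed level of those markers, which includes both genes, was 14.16 to 14.85 in single-cultured cells, against 11.97 to 12.60 in non-cultured cells.

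Energy metabolism moved in parts. Of 33 glycolysis and hypoxia genes 7 rose and 1 fell, with 0 falls on leaving out replicate 3 of either group and 2 without non-cultured replicate 2 or single-cultured replicate 1. Egln3, the oxygen-sensing hydroxylase that hypoxia itself induces, was at 9.31, 9.68 and 9.60 in single-cultured cells, against 4.26, 4.11 and 3.95 in non-cultured cells and was called higher (adjusted p = 2.84e-09), with 2 of the 3 non-cultured arrays at the no-target level. The collagen hydroxylase P4ha1 rose by 1.88 (SE 0.17), beside Slc16a3 and Adm. Genes of oxidative phosphorylation and the citric acid cycle gave 0 rises and 0 falls among 53, with differences between -0.62 and 0.77 and a median of 0.16, and 1 rise appeared without single-cultured replicate 3. Cholesterol and fatty acid synthesis gave 7 rises and 0 falls of 35. The desaturase Fads2 was at 7.37, 7.68 and 7.90 in single-cultured cells, against 5.40, 4.77 and 3.95 in non-cultured cells, and the sterol enzymes Sqle and Msmo1 rose by 2.10 (SE 0.17) and 2.05 (SE 0.23). In ribosome biogenesis and nucleotide synthesis 3 of 34 rose and 1 fell. The CTP synthase gene Ctps was at 12.87, 12.51 and 12.90 in single-cultured cells, against 10.59, 10.80 and 10.85 in non-cultured cells, and Impdh1, of purine synthesis, fell by 1.95 (SE 0.24). The count of rises in that list was between 5 and 7 on leaving out replicate 1 or 2 of either group. Among 38 homeobox and patterning factors 4 rose and 0 fell, with the mesenchymal factors Prrx1 (2.56, SE 0.38) and Zeb2 (1.41, SE 0.30) first.

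Markers of other cells differed between the groups and were read for every list of cell types. Markers of phagocytes had the highest share of rises among these lists. Microglia and macrophage markers rose in 15 of 26 cases and fell in 1 (median 1.73). The cytoplasmic protein Aif1 was at 10.36, 9.15 and 9.08 in single-cultured cells, against 4.93, 5.48 and 6.49 in non-cultured cells, lysozyme, Lyz2, at 13.66, 12.90 and 13.14 in single-cultured cells, against 9.64, 9.77 and 9.83 in non-cultured cells, and the scavenger receptor Msr1 rose by 3.40 (SE 0.41). Cd163, a receptor of perivascular macrophages, lay below the no-target level after culture and was at least 5.25-fold lower. Itgam was at the no-target level in non-cultured cells and Cd163 in single-cultured cells. Other defining genes did not pass, such as Cx3cr1 (-0.03), Tmem119 (0.28) and Csf1r (0.83), all chosen after their values were seen. Mmp12, Lgals3, Spp1 and Gpnmb moved in the same direction as the markers that rose, 1 of which is C1qb. The part of phagocytes in the rises of all these genes was not tested.

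Pericyte markers fell in 8 of 16 cases and rose in 2, with 5 falls when non-cultured replicate 3 or single-cultured replicate 1 was left out. Their summed level was 11.34 to 11.60 in single-cultured cells, against 12.32 to 12.66 in non-cultured cells. In the b.End5 line it was 11.74 to 12.01, so its level alone does not show pericytes. Rgs5, a regulator of G protein signals and a widely used pericyte marker, was at 5.07, 5.43 and 5.30 in single-cultured cells, against 11.10, 10.78 and 11.29 in non-cultured cells, 55.4-fold lower. Vitronectin, Vtn, fell by 3.95 (SE 0.42), and Atp13a5 was at least 4.25-fold lower. Of the rises, Mcam is also made by endothelium, and Tbx18 (1.26) lost its call without single-cultured replicate 2 or 3 or any non-cultured replicate. Astrocyte markers fell in 7 of 17 cases, 3 without non-cultured replicate 3, with 0 rises, and Sox9 fell by 3.23 (SE 0.42). Their summed level was 13.17 to 13.20 in single-cultured cells, against 13.72 to 13.94 in non-cultured cells. In b.End5, an endothelial line, the same sum was 12.93 to 13.04, so its level alone does not show astrocytes. Gjb6, Gpr37l1 and Ntsr2 were at the no-target level in both groups, and the water channel Aqp4 in non-cultured cells. Of 12 erythrocyte and lymphocyte markers 5 fell with 0 rises, the haem enzyme Alas2 first (-3.79, SE 0.31). Their summed level was 7.86 to 7.96 in single-cultured cells, against 9.76 to 10.22 in non-cultured cells. Neuronal markers gave 2 rises and 3 falls of 19, with 1 rise on leaving out any array of the comparison except single-cultured replicate 2. Oligodendrocyte markers gave 0 rises and 0 falls of 16. Ependymal and choroid plexus markers gave 1 rise and 0 falls of 9, the rise being Cldn1, given above, and 1 fall appeared without non-cultured replicate 1. Of the oligodendrocyte markers Cldn11, Ermn, Mag, Olig1, Olig2 and Ugt8a were at the no-target level in both groups, and the summed level was 10.51 to 11.43 in single-cultured cells, against 12.84 to 13 in non-cultured cells. Mal, the oligodendrocyte marker with the largest difference (-2.56), was not called in the fit of all arrays. It was called lower without b.End5 replicate 2, and in fits of only the 6 arrays with or without pairing by number. Median centring, cyclic loess scaling and leaving out the dimmest 30% of genes also gave the call.

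**Figure D5:**
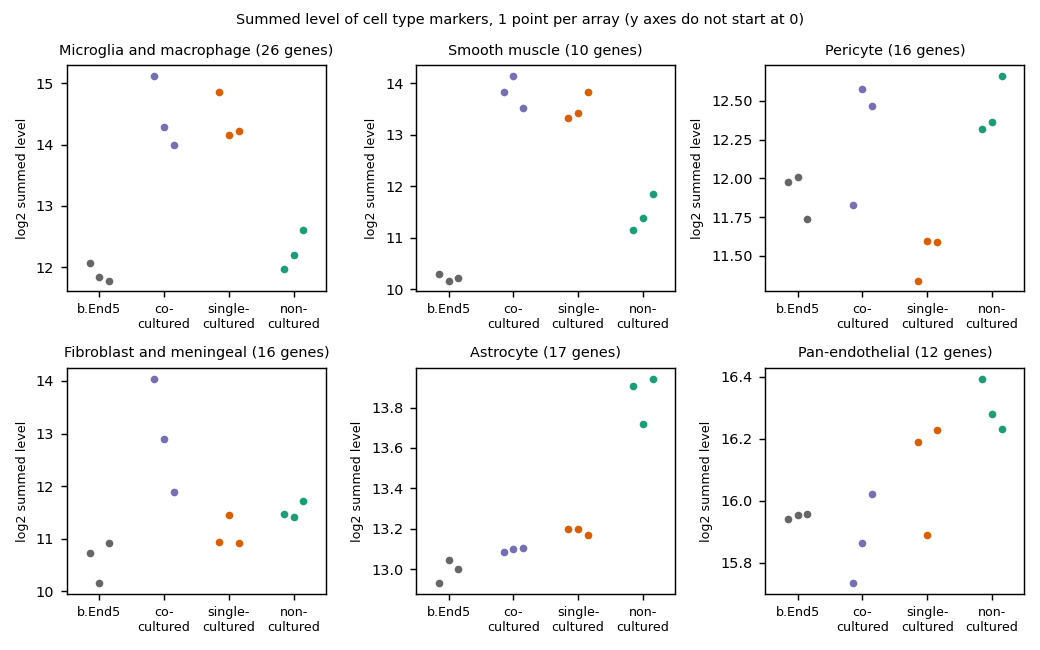
Summed level (log2 of the sum of linear values) of the markers of 6 cell types, with 1 point for each array of b.End5, co-cultured, single-cultured and non-cultured cells. Microglia and macrophage markers are at 14.16 to 14.85 in single-cultured cells, against 11.97 to 12.60 in non-cultured cells, while pericyte markers are lower after culture (11.34 to 11.60 against 12.32 to 12.66). Pan-endothelial markers are at 15.889 to 16.228 in single-cultured cells, slightly below the 16.231 to 16.394 in non-cultured cells.

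The same genes were read in cells cultured above glia. Between co-cultured and single-cultured cells 137 genes (0.901%) were higher and 44 (0.289%) lower, 1.19% together. Without single-cultured replicate 1 there were 82 higher genes, and with arrays paired by number 107 were higher and 38 lower. Both comparisons use the single-cultured arrays, so only the values of each are set side by side. Of the 52 mitosis genes 31 were called higher in co-cultured than in single-cultured cells (23 with arrays paired by number, 21 without single-cultured replicate 1), with Bub1 at 9.10, 9.25 and 8.90 in co-cultured cells, against 7.34, 7.87 and 7.43 in single-cultured cells. Cyp1a1 was at 5.56, 5.57 and 5.75 in co-cultured cells, against 7.92, 8.09 and 8.54 in single-cultured cells (difference -2.56, adjusted p = 0.0105), a call lost without single-cultured replicate 3. Gja4 (-2.02) was also lower above glia. Sele (-2.43) and Gja5 (-2.28) were called lower too, but not with arrays paired by number (adjusted p = 0.0617 and 0.0524). Klf2, Klf4, Fosb, Axin2, Slc22a8 and Mfsd2a had no called difference between the cultured groups, with values from -0.64 for Axin2 to 0.74 for Mfsd2a.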

How the data were processed

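RNA of 4 kinds of mouse brain endothelial cell was amplified with a NuGEN WT-Ovation Pico kit and labelled with biotin per the labels' protocols, and hybridised to arrays with Affymetrix control probe sets. The deposited table holds log2 levels made by the authors with RMA, per the submitters' processing notes, and the sources used here give no version or probe-set definition. RMA corrects background, equalises the distributions of the arrays and so hides any change of total RNA. The 21625 probe sets include 64 Affymetrix controls, and 16537 of the 21561 RefSeq probe sets matched 1 mouse symbol (GRCm38.p6). Each of 15204 genes took its brightest probe set by the mean of the 12 arrays, and 88 of them share values with another gene.

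limma 3.58.1 in R 4.3.3 fitted the 4 group means over all 12 arrays (lmFit and eBayes, 8 residual degrees of freedom), with Benjamini-Hochberg adjustment over all genes. Genes were called at an adjusted p under 0.05 and a log2 difference of at least 1. The no-target level of an array is the 95th percentile of its 27 bacterial control probe sets. The number of arrays limits the precision. Tested on simulated data with 100 genes of each size among 15204, the fit recovered 88% of log2 changes of 1.5 and 98% of 2.5, with 2 false calls. The simulated noise was normal, independent and of equal spread in every group, and far fewer genes changed than were called here. These shares therefore do not give the recovery or the errors of the real comparison. Members and gene lists were chosen with earlier results of these data known, so lists have counts and medians and no test. Named genes are the 15 largest called rises and the 15 largest called falls without overlapping arrays, up to 3 called members per list and direction (1 member by size where none was called), and 20 marker genes. Some named genes are not reported here, and other genes are said to be chosen after their values were seen. Same-numbered arrays of single-cultured and non-cultured cells had correlated deviations of 0.180, 0.213 and -0.147, and were not taken as pairs. Those of co-cultured and single-cultured cells had 0.227, 0.135 and 0.232, which was taken as a possible sign of pairing. The labels state no pairing, so the calls come from the unpaired fit. Counts with arrays paired by number are given beside them. Alternatives changed the arrays in the fit, the scale, the filter, the probe set and the threshold. Figures were drawn with matplotlib 3.10.9.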

Additional observations from a re-analysis of the deposited data

Results flagged for a closer look

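For the following genes the difference between co-cultured and single-cultured cells itself passed the limma test without pairing the arrays, glia being in the lower well of the co-cultured cells. All values are co-cultured minus single-cultured on the log2 scale. Rgs5 was higher by 1.53, Slc16a3 by 1.89, Bub1 by 1.54, Rrm2 by 1.04 and Ppbp by 1.72, all 3 single-cultured arrays of Ppbp lying at the no-target level. The fibroblast collagens Col3a1 and Col1a1 were higher by 2.29 and 2.5. Both belong to the 16 measured fibroblast markers, of which 3 were called higher (median 0.54). The summed level of these markers, which includes both collagens, was 11.89 to 14.05 in co-cultured cells, against 10.91 to 11.44 in single-cultured cells. The part of fibroblasts in these values was not tested. Thy1, listed here as a neuronal marker and also made by fibroblasts, was higher by 2.80. It was the only 1 of 19 neuronal markers called higher, and their median difference was 0.024. Summed neuronal markers, a sum that includes Thy1, were at 10.01 to 11.30 in co-cultured cells, against 9.26 to 9.33 in single-cultured cells. Their part was not tested either. Cyp1a1 differed by -2.56, Sele by -2.43, Gja5 by -2.28, Gja4 by -2.02, Itga8 by -1.96 and Ephb1 by -1.73. Pard6g differed by -1.36, Nqo1 by -1.24, Me1 by -1.11 and Hmox1 by -1.10. With arrays paired by number, 9 of these 18 genes kept their call. Slc16a3, Nqo1, Ephb1, Me1, Sele, Ppbp, Gja5, Col3a1 and Col1a1 lost it, at adjusted p = 0.0516 to 0.0892. Rgs5, Bub1, Gja4, Pard6g and Thy1 kept it under that pairing, without b.End5 replicate 2, and without any 1 of the 6 arrays, whereas the other 13 lost it under at least 1 of these.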

How the results depend on the processing

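Of 271 named genes 188 kept their direction and their call under each of the 16 alternatives that gave a value for single-cultured against non-cultured cells (20 had none with the dimmest 30% left out), and no named value changed sign. Of 4316 such values 170 lost a call, 76 of them where the 2-fold minimum was set inside the test (limma treat), and 12 gained one. That stricter test called 453 genes higher and 349 lower, while an adjusted p under 0.05 with no minimum called 2354 higher and 1940 lower. Leaving out 1 array gave 1029 to 1071 higher and 824 to 880 lower genes. The replicate block with only the 6 arrays gave 1146 higher and 946 lower genes, within 1.5 times of the 1091 and 885 reported, and ended no named call. Median centring gave 978 and 978. Without b.End5 replicate 2 there were 1132 higher and 934 lower genes. Of 1984 list counts 1751 stayed within 1.5 times. For co-cultured against single-cultured cells, leaving out 1 array gave 82 to 183 higher and 30 to 54 lower genes, with 82 without single-cultured replicate 1, and the replicate block, with arrays paired by number, gave 107 and 38. Genes at the no-target level have only bounds.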

Other observations

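The genes of this part were chosen after their values were seen. Ahrr, the repressor that the aryl hydrocarbon receptor induces, was at 8.17 ± 0.73 in single-cultured cells, against 3.53 ± 0.38 in non-cultured cells (SD, n = 3 each), at least 16-fold higher. It was called in the same direction as Cyp1a1 and Cyp1b1. Tiparp, another target of that receptor, was lower (-1.04, SE 0.21). In co-cultured cells Ahrr stood at 5.55 ± 1.08, a difference of -2.62 from single-cultured cells that did not pass (adjusted p = 0.0634).

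Of phagocyte genes outside the marker lists, the lectin Clec4d rose by 4.64 (SE 0.60). Nox4, the oxidase that makes hydrogen peroxide in endothelium, rose by 5.28 (SE 0.27). Pdpn, podoplanin of lymphatic endothelium and other cells, rose by 4.46 (SE 0.40), the prion-like gene Prnd by 4.57 (SE 0.38) and the ubiquitin hydrolase Uchl1 by 4.45 (SE 0.22).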
